A study of Arabidopsis thaliana with 6 samples.

Results

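The genes described here are 10 nuclear genes of *Arabidopsis* that act in sulfate uptake, sulfate reduction and the response to sulfur limitation. They were chosen by name, with earlier results of these data known. All 10 were found by gene identifier among the 27444 genes of the deposited tables. They are *LSU1*, *LSU2*, *SDI1* and *SDI2*, which respond to low sulfur, the reductase genes *APR1*, *APR2* and *APR3*, the root sulfate transporter genes *SULTR1;1* and *SULTR1;2*, and the β-glucosidase gene *BGLU28*. The data are 6 RNA sequencing libraries of whole seedlings in the *Col-0* background, 3 of *atg5-1* and 3 of *lon1-2atg5-1*. Both groups carry *atg5-1*, a T-DNA insertion in *ATG5* (SAIL_129_B07) that blocks autophagy. The *lon1-2atg5-1* plants carry in addition *lon1-2*, a T-DNA insertion (SALK_012797) in the gene of the mitochondrial protease Lon1. The comparison thus sets plants with *lon1-2* against plants without it, all of which carry *atg5-1*. Any other difference between these lines cannot be told apart from *lon1-2*. Neither group was treated, and each mutation is represented by a single allele. Seedlings were 7 days old in the description of the series and 10 days old in the paper's methods. *Col-0* and *lon1-2* were not analysed here. No source states that the replicates came from separate sowings, so p-values measure the spread between these libraries.

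Sulfate enters the root through plasma membrane transporters of the SULTR1 type. In the cell it is activated by ATP sulfurylase to adenosine 5′-phosphosulfate (APS). APS reductase then commits it to reduction, and sulfite reductase and the enzymes of cysteine synthesis complete the route to cysteine and glutathione. APS kinase diverts part of the APS to PAPS, the sulfate donor for glucosinolates and other sulfated compounds. When sulfur is short, *Arabidopsis* raises transcripts of both root transporters, the APR genes, the LSU genes, *SDI1*, *SDI2* and *BGLU28*, in part through the transcription factor SLIM1. The joint rise of these genes is a common readout of the sulfur status of a plant.

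Library totals ranged from 21964283 to 23929531 counts, and the ranges of both genotypes overlapped. *LON1* had 671, 528 and 602 counts in *atg5-1*, compared with 196, 126 and 95 in *lon1-2atg5-1*, so each library had the *LON1* level that its label implies. *ATG5* (AT5G17290), disrupted in all 6 libraries, still gave 516, 520 and 436 counts and, with *lon1-2* added, 1319, 930 and 636. It was called higher (log2 0.98, adjusted p = 0.00786 in edgeR), without overlap, so its transcript was present and unequal between the groups. Part of it overlaps AT5G17280 on the opposite strand. The replicates of *lon1-2atg5-1* differed more than those of *atg5-1*, at a chi-square per degree of freedom of 12.5 to 32.8 between their counts against 3.90 to 5.78, and most between replicates 1 and 3. As whole seedlings should, all libraries held both root and shoot transcripts. The summed FPKM of 7 shoot marker genes lay between 33193 and 34750 in *atg5-1* and between 34292 and 38177 in *lon1-2atg5-1*, where *RBCS1A*, the most abundant of them, was the only one to pass the test (0.34 on the log2 scale, adjusted p = 0.0366 in edgeR). Of the 7, 3 had positive and 4 negative log2 changes, with a median of -0.02. The summed FPKM of 10 root marker genes lay between 190 and 241 in *atg5-1* and between 41.1 and 57.8 in *lon1-2atg5-1*. FPKM here is the count scaled to exon length and to the total of the library. The largest part of this sum came from *PRP3*, with a mean of 121 of 213 FPKM in *atg5-1* and 25.6 of 51.8 in *lon1-2atg5-1*. No root marker was at 0 in any library. By adjusted p, 9 of the 10 were significantly lower in *lon1-2atg5-1*, against 25.8% of all genes tested. *MYB36* did not pass the test (-0.21 on the log2 scale, adjusted p = 0.217 in edgeR). Whole seedlings cannot tell fewer root cells from less RNA per root cell or from lower expression of the marker genes themselves. The 10 markers changed by unlike amounts, from -4.42 for *TIP2;3* to -0.21 for *MYB36* on the log2 scale. The part of the root signal in the values below was not tested.

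The upstream sequences of 4 of the genes are shown. They are the 3 genes higher in *lon1-2atg5-1* whose window held a match to a searched sequence, and the transporter gene that fell most, which held none. They were picked with matches and directions known. Each is the 250 bases before the annotated start in TAIR10.1 (RefSeq), written 5′ to 3′ on the strand of the gene. Capitals mark matches on either strand to GAGAC, the core of the sulfur-responsive element, and to GAACCT, letters shared by the UPE box of sulfur-responsive promoters and by sites of EIN3-type factors such as SLIM1.
*LSU1*, chr3:18375941-18376190, minus strand: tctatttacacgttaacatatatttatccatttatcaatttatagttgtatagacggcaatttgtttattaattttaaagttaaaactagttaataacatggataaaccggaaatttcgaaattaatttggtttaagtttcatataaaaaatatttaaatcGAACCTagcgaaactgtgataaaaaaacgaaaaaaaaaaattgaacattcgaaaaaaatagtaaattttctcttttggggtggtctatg
*SDI2*, chr1:1337850-1338099, minus strand: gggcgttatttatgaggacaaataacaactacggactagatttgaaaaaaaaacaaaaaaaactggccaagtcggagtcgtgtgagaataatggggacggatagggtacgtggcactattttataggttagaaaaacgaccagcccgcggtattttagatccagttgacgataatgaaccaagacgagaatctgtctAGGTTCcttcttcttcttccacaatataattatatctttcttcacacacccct
*SDI1*, chr5:19807854-19808103, minus strand: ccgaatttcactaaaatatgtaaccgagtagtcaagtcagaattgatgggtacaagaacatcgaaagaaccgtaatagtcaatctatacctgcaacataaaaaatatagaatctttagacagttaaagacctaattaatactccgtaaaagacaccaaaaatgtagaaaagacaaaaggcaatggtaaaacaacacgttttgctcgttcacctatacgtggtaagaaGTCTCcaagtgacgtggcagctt
*SULTR1;1*, chr4:5500063-5500312, plus strand: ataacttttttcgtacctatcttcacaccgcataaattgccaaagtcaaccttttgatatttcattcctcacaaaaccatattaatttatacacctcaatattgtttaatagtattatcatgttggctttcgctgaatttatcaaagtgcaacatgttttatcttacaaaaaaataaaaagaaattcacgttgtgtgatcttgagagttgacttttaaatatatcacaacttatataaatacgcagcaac

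GAACCT was found in the *LSU1* window, from 89 to 84 bases before the start, and in reverse orientation in that of *SDI2*, from 53 to 48. GAGAC was found in reverse orientation in the *SDI1* window, from 23 to 19 bases before the start, and in that of *BGLU28*, from 115 to 111. Among the 10 genes, 2 windows held GAGAC and 2 held GAACCT. Among 27437 protein-coding genes, 25.8% of windows held GAGAC and 5.76% held GAACCT. ATGTACCT, another EIN3-type sequence, was in 0.423% of all windows and in 0 of the 10. None of the 3 sequences was found in the windows of *LSU2*, *APR1*, *APR2* and *APR3*, which were higher, or in those of both transporter genes, which were lower, while that of *BGLU28*, which did not pass the test, held a match. These are matches of letters in a short window only, and the known control regions of sulfur genes can lie farther upstream. Only the exact spellings of the 3 sequences were searched, so variants of these sites went unmarked.

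The 10 genes did not move together. All 4 low-sulfur response genes and all 3 APR genes rose in *lon1-2atg5-1*, both root sulfate transporter genes fell, and *BGLU28* did not pass the test. A gene was called where the quasi-likelihood test of edgeR gave an adjusted p below 0.05 and the levels differed more than 1.5-fold, and by this rule 6 of the 10 were called higher and 2 lower. Over all 20157 genes tested, 14.0% were called higher and 13.7% lower by the same rule. Without the fold change threshold, 7 of the 10 were higher, against 27.7% of all genes, and 2 were lower, against 25.8%. The median log2 change of the 10 was 0.84, and that of all genes tested was -0.00034. For 6 of the genes every *lon1-2atg5-1* library lay above every *atg5-1* library (32.3% of all genes), and for 2 every one lay below (30.9%). All changes below are *lon1-2atg5-1* over *atg5-1*. Their adjusted p-values come from the same edgeR fit, and means are given ± SD over 3 libraries of each genotype.

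**Figure D1:**
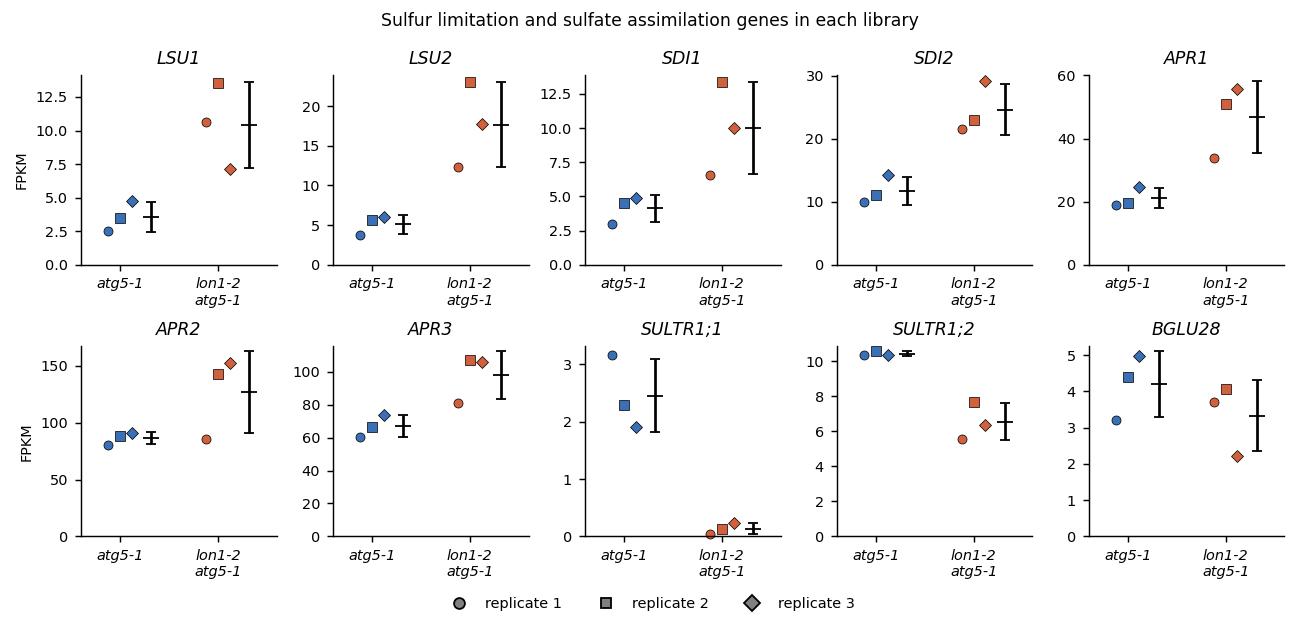
Transcript level in FPKM (vertical axis, from 0, a scale of its own for each gene) of the 10 genes in every library. Symbols are replicates 1 to 3, blue for *atg5-1* and orange for *lon1-2atg5-1*, and the black bar gives mean and SD (n = 3). The genotypes are apart for all genes but *APR2* and *BGLU28*, and *SULTR1;1* nearly disappears in *lon1-2atg5-1*, at 0.0377, 0.135 and 0.230 FPKM.

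The LSU genes encode small coiled-coil proteins that are strongly induced by sulfur shortage and bind many partners in stress responses. *LSU1* (AT3G49580), on chromosome 3 from 18374908 to 18375940 in TAIR10.1 coordinates, had 51, 69 and 93 counts in *atg5-1*, compared with 211, 263 and 151 in *lon1-2atg5-1*. All 3 double mutant libraries were above the highest *atg5-1* library. Normalized counts averaged 71.2 ± 22.7 and 210.0 ± 62.4, giving a log2 change of 1.56 (standard error, SE, 0.28, adjusted p = 0.00213). *LSU2* (AT5G24660), on chromosome 5 from 8443279 to 8444101, had 70, 103 and 109 counts against 228, 416 and 349. Its libraries did not overlap either, and with a log2 change of 1.82 (SE 0.27, adjusted p = 0.000746), a 3.54-fold rise, it rose most of the 10 genes. The other 2 genes of the family went different ways. *LSU3* (AT3G49570), the neighbour of *LSU1*, rose from 18, 19 and 26 counts to 130, 180 and 111, a log2 change of 2.75 (SE 0.27, adjusted p = 0.000117). *LSU4* (AT5G24655), which lies beside *LSU2*, had 60, 45 and 90 counts against 46, 48 and 24 and did not pass the test, at -0.71 (SE 0.34, adjusted p = 0.108). Exons of *LSU1* and *LSU3* match at 83.6% identity over 274 bp and those of *LSU2* and *LSU4* at 79.0% over 610 bp, below the 90% set here for reads that counting could confuse.

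The 4 LSU genes summed to 10.7, 12.9 and 17.6 FPKM in *atg5-1* and to 33.4, 50.4 and 32.4 in *lon1-2atg5-1*. The make-up of the family differed as well as its sum. *LSU3* took 9.23% ± 0.544 of the summed FPKM in *atg5-1* and 21.5% ± 2.05 in *lon1-2atg5-1*, while *LSU4* took 27.6% ± 6.19 and 5.92% ± 2.00 (SD, n = 3). The libraries of the genotypes did not overlap in either share. In an exact two-sided permutation test each gave p = 0.1, the smallest that 3 libraries against 3 allow, so no sum or share could pass at 0.05. The shares of *LSU1*, at 25.8% ± 2.04 and 26.8% ± 4.88, and of *LSU2*, at 37.4% ± 5.34 and 45.8% ± 8.89, overlapped.

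*SDI1* and *SDI2* encode related proteins that repress glucosinolate synthesis when sulfur is short. *SDI1* (AT5G48850), on chromosome 5 from 19805437 to 19807853, had 84, 122 and 131 counts in *atg5-1*, compared with 180, 357 and 291 in *lon1-2atg5-1*. The lowest double mutant library, replicate 1, was still above every *atg5-1* library. This was a 2.47-fold rise (SE 0.28 on the log2 scale, adjusted p = 0.00523). *SDI2* (AT1G04770), on chromosome 1 from 1336274 to 1337849, had 294, 314 and 405 counts against 624, 647 and 898, again without overlap. It rose by a log2 change of 1.10 (SE 0.17, adjusted p = 0.000986). Up to 431 bp of *SDI2* overlap *VAMP726* on the opposite strand, and whether counting used the strand is not stated, so its level is less certain than that of *SDI1*.

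APS reductase is the enzyme at which sulfate reduction is mainly controlled, and its 3 genes have plastid products. *APR1* (AT4G04610), on chromosome 4 from 2324878 to 2327064, had 839, 842 and 1060 counts in *atg5-1*, compared with 1472, 2165 and 2577 in *lon1-2atg5-1*. The groups were apart, and the log2 fold change was 1.19 (SE 0.20, adjusted p = 0.00148). *APR3* (AT4G21990), on chromosome 4 from 11657008 to 11659167, had 2534, 2684 and 2990 counts against 3328, 4295 and 4632. It also rose in every library, but less, by 0.58 on the log2 scale (SE 0.13, adjusted p = 0.00699), just under the fold change threshold. It was over it with no filter on low counts (0.59), without *atg5-1* replicate 3 (0.66) and without *lon1-2atg5-1* replicate 1 (0.72). *APR2* (AT1G62180), the gene of the main isoform in leaves, on chromosome 1 from 22975530 to 22977885, had 3769, 4022 and 4109 counts against 3929, 6403 and 7477. Here the *lon1-2atg5-1* libraries divided: replicate 1 lay within the *atg5-1* range and replicates 2 and 3 were well above it. Its log2 change of 0.59 (SE 0.21, adjusted p = 0.0413) is the least certain of the 9 differences. With DESeq2, DESeq2 size factors, library-size scaling or a minimum of 10 counts in every library it passed the test but fell under the fold change threshold, at 0.55 to 0.58. In limma on FPKM it did not pass, at adjusted p = 0.0640 and 0.0633 with pseudocounts of 1 and 0.1. Leaving out any of the *atg5-1* replicates, or replicate 2 or 3 of *lon1-2atg5-1*, also ended the call (adjusted p from 0.0834 to 0.128), whereas leaving out replicate 1 of *lon1-2atg5-1* gave a rise of 0.82. *APR2* overlaps 2 genes on the opposite strand by up to 782 bp.

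Per length, *APR2* was the most abundant of the 10 genes in both genotypes, at 86.3 ± 5.53 FPKM in *atg5-1* and 127 ± 36.2 in *lon1-2atg5-1*. The 3 APR genes together came to 159, 174 and 189 FPKM in *atg5-1* and to 200.3, 300.2 and 314 in *lon1-2atg5-1*, a 1.56-fold difference of means without overlap. *APR1* took 12.1% ± 0.929 of this sum in *atg5-1* and 17.2% ± 0.453 in *lon1-2atg5-1*, without overlap (exact two-sided permutation p = 0.1, the smallest possible). For *APR2* and *APR3* the shares were 49.6% ± 1.55 and 38.3% ± 0.648 in *atg5-1* and 46.2% ± 3.15 and 36.6% ± 3.48 in *lon1-2atg5-1*, with overlap between the genotypes for *APR2* (exact permutation p = 0.2) and for *APR3* (p = 0.5).

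**Figure D2:**
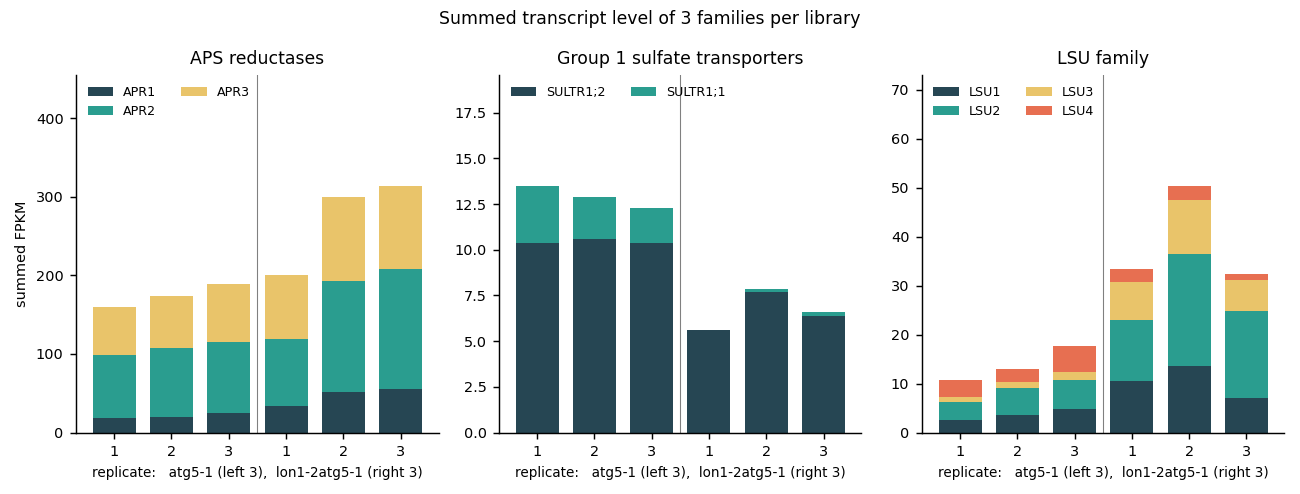
Stacked bars of FPKM (vertical axis, from 0) for the APR genes, both root SULTR1 genes and the 4 LSU genes in each library (horizontal axis, replicates 1 to 3 of *atg5-1* on the left and of *lon1-2atg5-1* on the right). The APR and LSU sums are higher in every *lon1-2atg5-1* library, with a larger *LSU3* part and a smaller *LSU4* part, while the transporter sum is lower, at 5.62 to 7.83.

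The transporters went the other way. *SULTR1;1* (AT4G08620), on chromosome 4 from 5500313 to 5506313, encodes a high-affinity sulfate transporter of the root surface, and is usually among the genes most strongly induced by low sulfur. It had 171, 120 and 100 counts in *atg5-1*, compared with 2, 7 and 13 in *lon1-2atg5-1*. Normalized counts averaged 129 ± 31.9 and 7.34 ± 5.40, giving a log2 change of -4.12 (SE 0.40, adjusted p = 0.000114), or a 17.3-fold lower level. It ranked 30 from the lowest among the 20157 genes tested. The log2 change stayed between -4.79 and -3.67 with any library left out. On log2(FPKM + 1) the difference was -1.59, a scale on which a pseudocount of 1 exceeds the *lon1-2atg5-1* values themselves. *SULTR1;2* (AT1G78000), on chromosome 1 from 29327515 to 29333220, carries most sulfate uptake in roots with ample sulfur. It had 997, 988 and 962 counts against 526, 709 and 640, with every *lon1-2atg5-1* library below every *atg5-1* library. Its log2 change of -0.64 (SE 0.11, adjusted p = 0.00203) corresponds to a 1.56-fold lower level. Without *lon1-2atg5-1* replicate 1 it was -0.52, still significant but under the fold change threshold.

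Together both transporters came to 13.5, 12.9 and 12.3 FPKM in *atg5-1* and to 5.62, 7.83 and 6.61 in *lon1-2atg5-1*. AT4G08620 made up 23.4%, 17.8% and 15.6% of that sum in *atg5-1* and 0.671%, 1.72% and 3.48% in *lon1-2atg5-1* (exact two-sided permutation p = 0.1, the smallest possible). The third gene of this type, *SULTR1;3* (AT1G22150), which acts in the phloem, had 62, 35 and 68 counts against 87, 89 and 62 and did not pass the test, at 0.54 (SE 0.27, adjusted p = 0.118), but passed without *lon1-2atg5-1* replicate 3 (0.71, adjusted p = 0.0427). Both genes that fell are root genes, and root markers fell in the same libraries. The 10 root markers had log2 fold changes from -4.42 for *TIP2;3*, a tonoplast aquaporin gene, to -0.21 for *MYB36*, with a median of -1.58. AT4G08620 fell further than 9 of these 10 markers, and AT1G78000 fell less than 9 of them. The aquaporin gene, picked as the marker that fell most, was close to AT4G08620 in pattern, with 601, 516 and 484 counts in *atg5-1*, compared with 9, 26 and 39 in *lon1-2atg5-1*. In both genes replicate 1 was the highest *atg5-1* library and the lowest *lon1-2atg5-1* library, as it was for the summed root markers. How much of the fall of the transporters goes with the root signal was not tested.

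*BGLU28* (AT2G44460), on chromosome 2 from 18346306 to 18350026, encodes a β-glucosidase that releases sulfur from glucosinolates when sulfur is short. It had 161, 214 and 241 counts in *atg5-1*, compared with 182, 195 and 116 in *lon1-2atg5-1*, so the groups overlapped. Its log2 change of -0.31 (SE 0.24, adjusted p = 0.288) did not pass the test under any of the 15 alternatives run. *BGLU30* (AT3G60140), a related gene with the same role, had 68, 90 and 60 counts against 160, 134 and 90 and rose by 0.82 on the log2 scale (SE 0.25, adjusted p = 0.0235). The call was lost when *atg5-1* replicate 1 or 3, or *lon1-2atg5-1* replicate 1 or 2, was left out (adjusted p from 0.0601 to 0.0862). The *BGLU30* groups overlapped slightly, and its exons match those of *BGLU28* at 81.6% identity.

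The 10 genes were then set beside 41 other genes of sulfur metabolism, grouped by role, all of which passed the filter on low counts. Of these, 11 were called higher and 2 lower, where 14.0% and 13.7% of all genes were. By adjusted p alone 23 were higher and 4 lower, against 27.7% and 25.8% of all genes, and 14 did not pass. Their median log2 fold change was 0.34. Most changes in this wider list were small. At a fold change over 2, 3 of the 41 were called higher and 1 lower, against 1327 and 1513 of the 20157 genes tested. Among the 6 other low-sulfur response genes, 3 were called higher, including *LSU3* and *BGLU30*. *GGCT2;1* (AT5G26220), whose product breaks down glutathione in the cytosol and is induced by low sulfur, had 60, 77 and 88 counts against 156, 273 and 142, a log2 change of 1.35 (SE 0.30, adjusted p = 0.00555). *SLIM1* (AT1G73730), a regulator of part of the response, had 504, 518 and 526 counts against 519, 431 and 572, a log2 change of -0.02 (SE 0.0955, adjusted p = 0.864). *MSA1* (AT1G36370), a serine hydroxymethyltransferase gene needed for sulfur homeostasis, had 2509, 2854 and 3139 counts against 1943, 3422 and 5147, the widest spread of the 6 in *lon1-2atg5-1*, and did not pass the test (0.31, SE 0.29, adjusted p = 0.402), although it was at 0.60 without *lon1-2atg5-1* replicate 1 (adjusted p = 0.0112). *BGLU30*, *SLIM1* and *MSA1* were singled out after their values were seen.

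Of the 10 other sulfate transporter genes, 4 were higher and 3 lower by adjusted p, and 2 were called, both lower. These counts are near the shares of all genes, 27.7% higher and 25.8% lower by adjusted p and 13.7% called lower. The 4 higher genes rose by 0.19 to 0.56 on the log2 scale, without overlap but under the fold change threshold. *SULTR3;5* (AT5G19600), which assists root-to-shoot transport in the root vasculature, fell from 255, 256 and 283 counts to 74, 63 and 47, a log2 change of -2.10 (SE 0.17, adjusted p = 4.81e-05). It fell further than 8 of the 10 root markers. *SULTR3;1* (AT3G51895), which imports sulfate into plastids, fell by 0.86 on the log2 scale (SE 0.16, adjusted p = 0.00295).

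In the steps after uptake nearly all significant changes were rises. Of all genes tested, 27.7% were higher and 25.8% lower by adjusted p, and 14.0% were called higher. Of the 6 genes of ATP sulfurylases and sulfite enzymes 5 rose by adjusted p. *APS3* (AT4G14680) was the only one called, at 0.62 (SE 0.093, adjusted p = 0.000827), which is near the share of all genes called. In the PAPS branch 3 of 5 genes were called higher. *SAL1* (AT5G63980), a phosphatase that removes the by-product PAP, rose by 0.98 (SE 0.11, adjusted p = 0.000168), and *APK2* (AT4G39940), an APS kinase of the glucosinolate route, by 0.94 (SE 0.14, adjusted p = 0.000904). Of the 12 genes listed under cysteine synthesis 6 rose and 1 fell, and 3 were called. *DES1* (AT5G28030) is counted in this list, among the rises and the calls, but as a cysteine desulfhydrase it breaks cysteine down. *DES1* had 32, 31 and 27 counts against 63, 74 and 83, a log2 change of 1.29 (SE 0.19, adjusted p = 0.000708). Part of its exons matches *CYSD2* at 91.1% identity over 168 bp, so some reads could have been split between them. *SERAT3;2* (AT4G35640), a serine acetyltransferase gene that responds to low sulfur, rose by 0.82 (SE 0.18, adjusted p = 0.00521). Both genes of glutathione synthesis rose, *GSH1* (AT4G23100) from 5513, 5068 and 5054 counts to 8828, 8141 and 8430, at 0.71 on the log2 scale (SE 0.063, adjusted p = 7.8e-05).

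**Figure D3:**
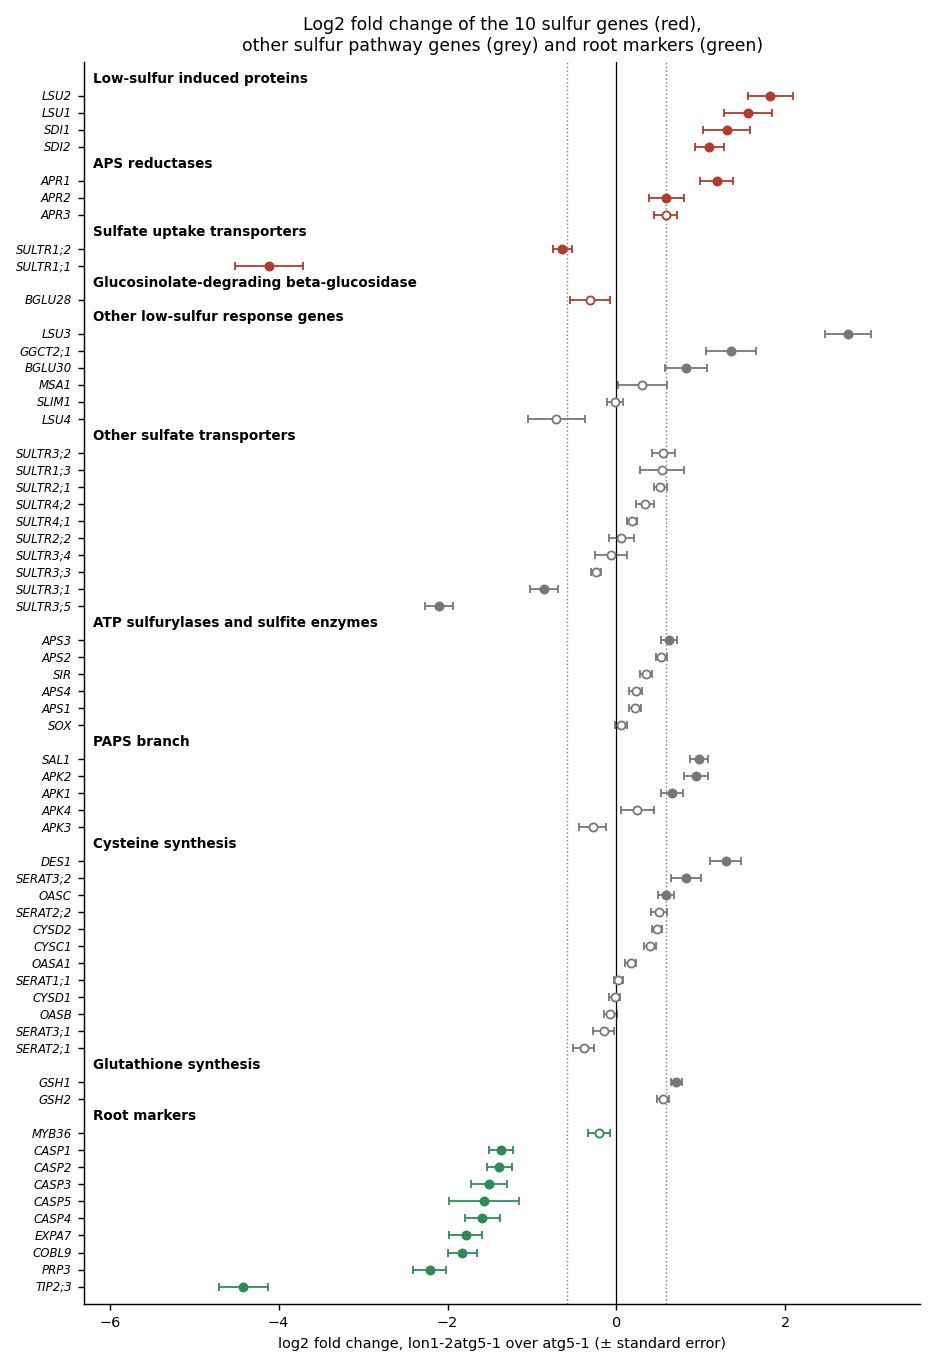
Log2 fold change of *lon1-2atg5-1* over *atg5-1* (horizontal axis, ± standard error) for the 10 genes in red, the 41 other sulfur genes in grey and 10 root markers in green, grouped by role. Filled points passed the test and differed more than 1.5-fold (dotted lines). Among the red points *LSU1*, *LSU2*, *SDI1*, *SDI2* and *APR1* lie between 1.10 and 1.82, while the lowest member, at -4.12, is near the lowest root marker, at -4.42.

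Within a genotype the 10 genes varied together only in part. In *atg5-1*, 8 of the 10 were lowest in replicate 1 and highest in replicate 3, an order found in 16.3% of all genes tested. Of the transporters, AT4G08620 had the opposite order there, highest in replicate 1 and lowest in replicate 3, and AT1G78000 hardly varied, with an SD of 0.038 on the log2 CPM scale. In *lon1-2atg5-1*, 8 of the 10 were lowest in replicate 1 (37.4% of all genes). Of these, *SDI2*, the 3 APR genes and AT4G08620 were highest in replicate 3 and *LSU2*, *SDI1* and AT1G78000 in replicate 2. *LSU1* and *BGLU28* were instead highest in replicate 2 and lowest in replicate 3, as were *LSU3*, *LSU4* and *GGCT2;1*. The spread in log2 CPM was larger in *lon1-2atg5-1* than in *atg5-1* for *APR2*, at an SD of 0.494 against 0.112, and for AT1G78000, at 0.250 against 0.038. For AT4G08620 it was 0.959 against 0.345, but the first value rests on only 2, 7 and 13 counts. The spread was close for *LSU1*, at 0.437 against 0.460.

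**Figure D4:**
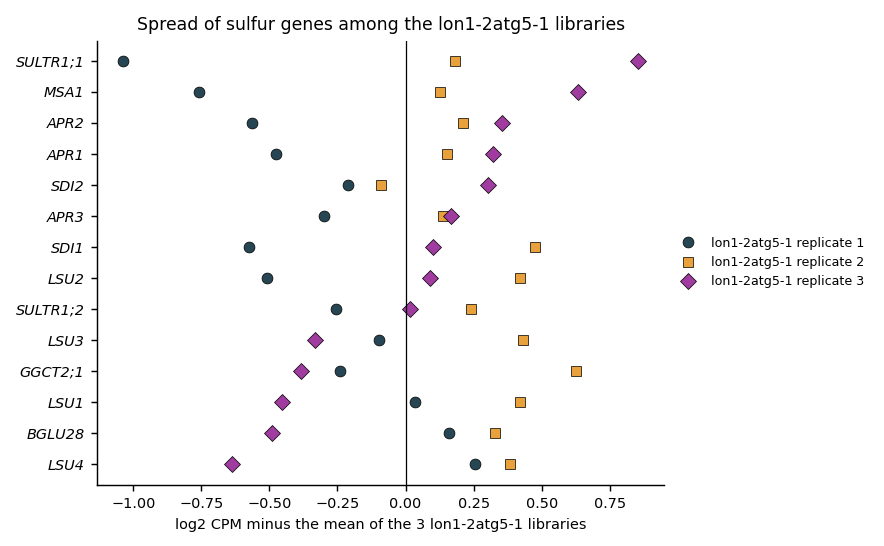
Log2 CPM of each *lon1-2atg5-1* library minus the mean of the 3 libraries (horizontal axis) for the 10 genes and 4 other low-sulfur response genes, with a symbol for each replicate. Replicate 1 is lowest for the APR genes, the transporter gene AT4G08620 (-1.04, from 2, 7 and 13 counts) and *MSA1* (-0.76). Replicate 3 is lowest for *LSU1* (-0.45), *BGLU28* (-0.49) and *LSU4* (-0.64).

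The genes most like *LSU1* in log2 CPM over the 6 libraries, outside the 10, were AT2G03140, *HVA22C* (AT1G69700), *PFI* (AT1G71440), AT4G18570 and AT2G46540, with Pearson correlations from 0.996 to 0.998. All 5 changed less than *LSU1*, with log2 fold changes from 0.17 to 0.38. The libraries fall into 2 genotypes, and these values over 6 libraries are a description only.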

How the data were processed

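Genotypes of the 6 seedling RNA libraries, 3 each, were taken from the labels. Per the paper, the authors used a stranded mRNA kit, Trimmomatic for trimming, hisat2 for alignment and htseq-count for counting. The labels name TAIR10 as the build. The deposited counts are raw. The FPKM values as deposited, for which the authors name cufflinks, equalled count over exonic length and library total for all 23819 genes with a count, with lengths of the TAIR10.1 annotation, whose coordinates are used here. Totals per library were 21964283 to 23929531 counts.

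Counts were filtered with filterByExpr (20157 genes), TMM-normalized and fitted in edgeR 4.0.16 (quasi-likelihood, R 4.3.3), with Benjamini-Hochberg adjustment over all genes tested. A call needed an adjusted p below 0.05 and a difference above 1.5-fold. Standard errors were obtained by dividing the size of the log2 change by the root of F and can be too small at low counts. The members and lists were chosen with earlier results of these data known. All 10 members were described. Of each list the 2 called genes with the largest change in each direction were named, with the sequence relatives of members. Symbols follow common usage, and all 70 listed identifiers matched the RefSeq table. Copies were sought with BLAST 2.17.0. Alternatives were DESeq2 1.42.0, the exact test, other scalings and filters, the replicate block, limma 3.58.1 on FPKM, other thresholds and each library left out. The steps were tested on simulated data. Replicate pairs had a chi-square per degree of freedom of 3.90 or more, so all 6 were kept as separate samples.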

Additional observations from a re-analysis of the deposited data

How the results depend on the processing

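All 10 genes kept their direction in every alternative in which they were tested. *SULTR1;1* was not tested with at least 10 counts in every library, since it does not reach this. By adjusted p *APR2* alone changed its side of the threshold: it was at 0.51 in limma on log2(FPKM + 1) (adjusted p = 0.0640) and 0.51 on log2(FPKM + 0.1) (adjusted p = 0.0633), and between 0.41 and 0.82 with a library left out (adjusted p up to 0.128). The cause was not tested. Counting the fold change threshold as well, *APR2* was also not called with DESeq2 size factors (0.58), library-size scaling (0.55), DESeq2 (0.58), at least 10 counts in every library (0.58) and the replicate block (0.54), *APR3* became called in 3 alternatives and *SULTR1;2* was not called without *lon1-2atg5-1* replicate 1. With a library left out, the differences of *SLIM1* (-0.0963 to 0.0639) and *MSA1* (-0.0483 without *lon1-2atg5-1* replicate 3 to 0.60 without replicate 1, where it passed at adjusted p = 0.0112) changed sign, and *SULTR1;3* passed without *lon1-2atg5-1* replicate 3 (0.71, adjusted p = 0.0427). Of the 10 genes, 5 to 7 were called higher over all alternatives. The number called lower was 1 instead of 2 with at least 10 counts in every library and at a fold change over 2, and 1 to 2 with a library left out. Among the 41 other sulfur genes, 6 were called higher and 1 lower with limma on log2(FPKM + 1), 3 and 1 at a fold change over 2, and 23 and 4 with no fold change threshold, against 11 and 2. Of all genes, 1327 were higher and 1513 lower at a fold change over 2, and 5575 and 5206 with no threshold. Replicate numbers did not pair the samples: the correlations of deviations for equal numbers were -0.037, -0.115 and -0.0099. With the replicate block 5 of the 10 genes were called higher and 2 lower, and 11 and 2 of the other sulfur genes. At 2 to 13 counts in *lon1-2atg5-1*, depth limits the fold change of *SULTR1;1* more than that of the other 9.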
